A study of Mus musculus with 4 samples.

Results

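The 9 genes described here are ligands, a co-receptor and direct target genes of Nodal and BMP signalling in embryonic stem cells (ESCs): Nodal, Bmp4, Tdgf1, Lefty1, Lefty2, Smad7, Id1, Id2 and Id3. They were chosen by name for their place in the 2 pathways, with earlier results of these data known. All 9 were found among the 24116 genes counted. The series compared wild-type (WT) ESCs with ESCs lacking Terc, the RNA template of telomerase, by RNA-seq of poly(A) RNA. The WT cells were line N12 and the Terc knockout cells line F35, which the study derived from blastocysts of second-generation Terc-/- intercrosses and called G3 Terc-/-. Both lines were of the C57BL/6 strain, grown on feeder cells with serum and leukemia inhibitory factor, and each gave 2 libraries, given as biological replicates. Since each genotype was 1 line, genotype and line cannot be told apart, and p-values measure the spread between libraries of a line.

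Nodal and BMP4 are secreted ligands of the TGF-beta family that act through paired serine-threonine kinase receptors and SMAD proteins. Nodal binds activin receptors together with the co-receptor Cripto, encoded by Tdgf1, and its signal is carried by SMAD2, SMAD3 and the DNA-binding partner FOXH1. Lefty1, Lefty2 and Smad7 are switched on by this signal and inhibit it in turn. BMP4 signals through SMAD1 and SMAD5 to the Id genes, whose products bind E proteins and keep them off DNA. In mouse ESCs kept in serum, BMP and the ID proteins are known for holding back neural differentiation, and Nodal signalling for its part in the exit from naive pluripotency and in mesendoderm formation.

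Gene counts per library summed to between 18047995 and 22520017. Counts of Terc (gene identifier 21748) were 7 and 2 for WT and 0 for either knockout library, and a count of 0 allows up to 3. Libraries of the same genotype were further apart than sampling noise, with a mean chi-square per gene of 2.41 in WT and 3.60 in G3 Terc-/-. Summed over 10 pluripotency markers, the libraries held between 5189 and 6244 CPM (counts-per-million, scaled by TMM factors), against 211.2 to 379.8 CPM for 15 markers of feeder fibroblasts. The feeder sum was 329.0 and 211.2 CPM in WT replicates 1 and 2 and 379.8 and 252.2 CPM in G3 Terc-/- replicates 1 and 2. All 7 Y-linked genes tested were called higher in G3 Terc-/- libraries, with a median log2 fold change of 2.35, so that the lines differed in Y-linked expression as well as in Terc. In these bulk libraries, fewer cells of a type and less RNA per cell cannot be told apart.

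Of the 14896 genes that passed the filter on low counts, 43.5% had a Benjamini-Hochberg adjusted p under 0.05 from edgeR's quasi-likelihood test, 21.7% as higher and 21.8% as lower in G3 Terc-/- ESCs. All 9 signalling genes passed the filter, and 7 of them were called by that rule. Nodal, Tdgf1, Smad7, Id3 and, by a small amount, Lefty2 were higher in G3 Terc-/- ESCs, whereas Id2 and Bmp4 were lower. Lefty1 and Id1 were not called. At the study's own cutoffs for genes, a fold change over 2 and P under 0.05, here applied to edgeR's unadjusted p, 7.85% of the genes tested changed, and of the 9 this held for Id3. The median log2 fold change of the 9 genes was 0.16, beside 0.0062 over all genes tested. In 70.4% of the genes tested, as in all 9, the values of the genotypes did not overlap, so that with 2 libraries against 2 this carries little. In this design an exact permutation test, two-sided, of any single value has 0.333 as its smallest p.

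**Figure D1:**
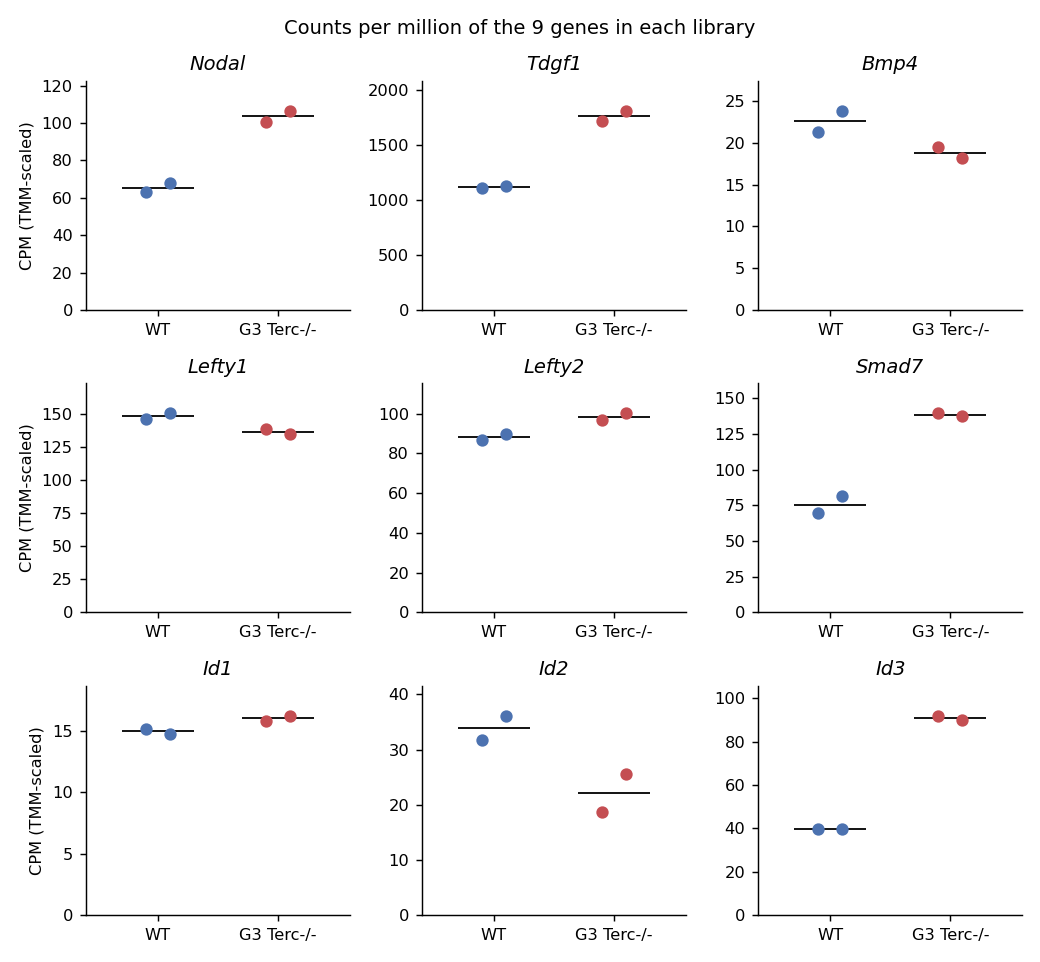
CPM of each gene, scaled by TMM factors, on linear axes that start at 0, with 1 point per library (WT blue, G3 Terc-/- red) and a line at the mean of 2. Nodal, Tdgf1, Smad7 and Id3 sit clearly higher in G3 Terc-/- libraries and Id2 lower, while Lefty1, Lefty2, Bmp4 and Id1 differ by little.

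**Figure D2:**
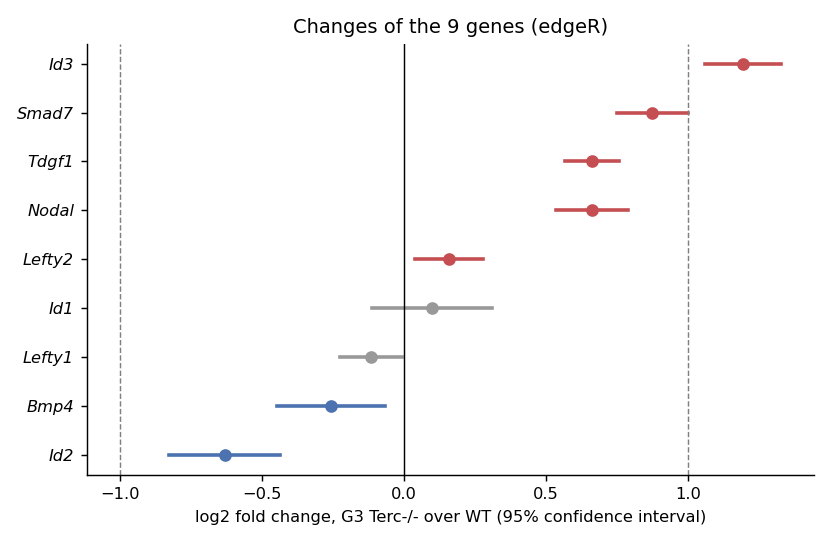
Log2 fold change of each gene, G3 Terc-/- over WT, from edgeR, with its 95% confidence interval; red and blue mark genes called higher and lower, grey those not called, and dashed lines a fold change of 2. The interval of Id3 lies past the dashed line, and that of Id1 spans 0.

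Nodal (gene identifier 18119), on chromosome 10 of GRCm38 (61417972 to 61425338), was higher in G3 Terc-/- ESCs. It had 63.0 and 67.8 CPM in the WT libraries and 100.7 and 106.4 CPM in the G3 Terc-/- libraries. Both knockout libraries lay above both WT libraries, by a distance several times the spread within a genotype. The log2 fold change was 0.66 (standard error, SE, 0.06, edgeR adjusted p = 6.35e-12), or 1.58-fold. Tdgf1 (gene identifier 21667, chromosome 9 from 110939608 to 110946158) encodes Cripto, a co-receptor through which Nodal engages activin receptors. Its values were 1108 and 1129 CPM in WT, against 1726 and 1814 CPM in G3 Terc-/- libraries, again without overlap. Its log2 fold change was also 0.66 (SE 0.05, edgeR adjusted p = 1.36e-15), so that ligand and co-receptor were higher by nearly the same factor. Changes larger than that of Nodal, and likewise than that of Tdgf1, were seen in 16.5% of all genes tested. Per length, Tdgf1 stood at 19.06 and 18.04 times the level of Nodal in the WT libraries and at 18.58 and 18.48 times in the G3 Terc-/- libraries. Neither gene depended on a single library, since on leaving out any library the log2 fold change of Nodal stayed between 0.61 and 0.71 and that of Tdgf1 between 0.63 and 0.69.

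Bmp4 (gene identifier 12159, chromosome 14 from 46383525 to 46390669), the BMP ligand of the set, moved the other way and by less. It had 21.3 and 23.8 CPM in WT, against 19.5 and 18.1 CPM in G3 Terc-/- libraries, values that lie close together. The log2 fold change was -0.26 (SE 0.09, edgeR adjusted p = 0.0237). This call was lost without WT replicate 2 (-0.18, edgeR adjusted p = 0.306), without G3 Terc-/- replicate 2 (-0.21, edgeR adjusted p = 0.106) and with DESeq2 (adjusted p = 0.150). An exon of Bmp4 shares up to 89 bases with Gm15217, a gene on the opposite strand, and the strand setting of the counting is not given in the sources used here. With Nodal higher and Bmp4 lower, the level of Nodal per length went from 2.92 and 2.81 times that of Bmp4 in the WT libraries to 5.08 and 5.78 times in the G3 Terc-/- libraries.

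The Nodal target genes did not move together. Smad7 (gene identifier 17131, chromosome 18 from 75367365 to 75395935) encodes an inhibitory SMAD that blocks type I receptors of both pathways. It had 69.6 and 81.6 CPM in WT, against 139.5 and 137.6 CPM in G3 Terc-/- libraries, the WT pair being the more spread. The log2 fold change was 0.87 (SE 0.06, edgeR adjusted p = 1.75e-15), and it ran from 0.76 to 0.99 with each library left out. Of all genes tested, 10.3% changed by more. Lefty1 (gene identifier 13590, chromosome 1 from 180935022 to 180938401), a secreted antagonist that binds Nodal and its receptor complex, had 145.7 and 150.3 CPM in WT, against 138.5 and 134.5 CPM in G3 Terc-/- libraries. The difference of -0.12 on the log2 scale (95% confidence interval -0.22 to -0.0079) did not pass the adjusted threshold (edgeR adjusted p = 0.0765), though it did without G3 Terc-/- replicate 1 (-0.14, edgeR adjusted p = 0.0262). Lefty2 (gene identifier 320202, chromosome 1 from 180893108 to 180899107), its neighbour and close relative, had 86.6 and 89.7 CPM in WT, against 96.7 and 100.2 CPM in G3 Terc-/- libraries. It was called higher by 0.16 on the log2 scale (SE 0.06, edgeR adjusted p = 0.0264), a call lost without WT replicate 1 (adjusted p = 0.264), WT replicate 2 (adjusted p = 0.109) or G3 Terc-/- replicate 2 (adjusted p = 0.0615), with DESeq2 (adjusted p = 0.0968) and with no filter on low counts (adjusted p = 0.0523). Both Lefty genes together came to 232.4 and 239.9 CPM in WT, against 235.3 and 234.6 CPM in G3 Terc-/- libraries. The level of Nodal per length rose from 0.334 and 0.349 of that of Lefty1 in WT libraries to 0.562 and 0.612 in G3 Terc-/- libraries.

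Because Lefty1 and Lefty2 are near-identical, their transcripts in GENCODE M21 were compared to see whether reads could be told apart. Their coding sequences have 1104 bases each, without the stop codon, and agree at 1014 of them, or 91.8%. The longest run the transcripts share is 140 bases, so that no window of 150 bases, the read length given by the study, is common to both. Of the windows of 50 bases, 17.9% of those in Lefty1 also occur in Lefty2. How the counting treated reads that fit both genes is not given in the sources used here, and the separate values of the 2 genes are uncertain to that extent. Their least similar coding stretch without a gap, bases 34 to 93 from the start codon in both genes, differs at 18 of 60 bases, which are set in capitals in both lines.

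Lefty1: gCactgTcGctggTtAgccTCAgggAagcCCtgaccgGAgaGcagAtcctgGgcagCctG

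Lefty2: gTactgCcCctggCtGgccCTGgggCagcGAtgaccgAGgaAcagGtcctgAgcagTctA

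The Id genes, classical BMP targets, moved in different directions. Id3 (gene identifier 15903, chromosome 4 from 136143822 to 136145392) had 39.7 CPM in each WT library and 91.9 and 89.9 CPM in the G3 Terc-/- libraries. Replicates differed little beside the distance between genotypes, and the log2 fold change of 1.19 (SE 0.07, edgeR adjusted p = 6.11e-19) was the largest of the 9 genes, with 5.37% of all genes tested changing by more. Id2 (gene identifier 15902, chromosome 12 from 25093799 to 25096092) had 31.7 and 36.1 CPM in WT, against 18.7 and 25.5 CPM in G3 Terc-/- libraries. These pairs did not overlap, and the G3 Terc-/- pair was the most spread of the set. Id2 was lower by -0.63 on the log2 scale (SE 0.10, edgeR adjusted p = 7.77e-07), with 17.6% of all genes tested changing by more. The size rested on the libraries, at -0.41 without G3 Terc-/- replicate 1 and -0.86 without G3 Terc-/- replicate 2, and the call held in both. Id1 (gene identifier 15901, chromosome 2 from 152736251 to 152737410) had 15.2 and 14.7 CPM in WT, against 15.8 and 16.2 CPM in G3 Terc-/- libraries. Its log2 fold change of 0.10 had a 95% confidence interval from -0.11 to 0.31 (edgeR adjusted p = 0.467).

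The makeup of the Id pool therefore differed between the lines. Per length, Id3 stood at 2.39 and 2.10 times Id2 in the WT libraries and at 9.39 and 6.72 times in the G3 Terc-/- libraries. Against Id1, Id3 went from 2.38 and 2.44 times to 5.27 and 5.03 times. Counts of Id1, Id2 and Id3 together were 86.6 and 90.6 CPM in WT, against 126.4 and 131.7 CPM in G3 Terc-/- libraries. Reads of the Id genes are readily told apart, since their transcripts share no window of 50 bases. The longest run shared by any pair is 15 bases, and pairs of coding sequences agree at 69.3% to 72.6% of aligned bases. The coding stretch in which the 3 genes are most alike lies at bases 247 to 306 of Id1, 178 to 237 of Id2 and 193 to 252 of Id3 from the start codon. The capitals mark the 43 of 60 bases that are the same in all 3 genes.

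Id1: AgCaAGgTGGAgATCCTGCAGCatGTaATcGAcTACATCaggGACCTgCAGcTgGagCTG

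Id2: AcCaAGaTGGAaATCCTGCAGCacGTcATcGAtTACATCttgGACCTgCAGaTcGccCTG

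Id3: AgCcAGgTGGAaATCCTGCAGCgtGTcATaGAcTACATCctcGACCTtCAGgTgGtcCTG

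Promoter sequences from RefSeq (GRCm38.p6) were matched for 5 of the 9 genes, Nodal, Tdgf1, Bmp4, Id2 and Id3, and their 250 bases before the start of the gene were searched on both strands for 3 motifs. These were CAGAC or, read on the opposite strand, GTCTG, a core SMAD-binding element, present in 42.2% of the 32851 promoters of the same length, GGCGCC, a GC-rich element that SMAD1 and SMAD5 can bind, in 9.59%, and AATCCACA (TGTGGATT on the other strand), an element of FOXH1, in 0.718%. The motifs did not overlap one another in these promoters. The promoters of Id3 and Id2 are shown because these genes changed in opposite directions, and that of Tdgf1 because it changed alongside Nodal, with matches in capitals. Id3 (chr4:136143572-136143821, plus strand) held CAGAC once on each strand, at 167 and 68 bases before the start. Id2 (chr12:25096093-25096342, minus strand) held GGCGCC at 231 bases before the start. Tdgf1 (chr9:110946159-110946408, minus strand) held CAGAC at 113 bases before the start. None of the 3 motifs was found in these windows of Nodal and Bmp4, which says only that these letters are not there. The GC content was 62.8% for both Id2 and Id3 and 42.0% for Tdgf1, against a median of 52.4% over all promoters.

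Id3: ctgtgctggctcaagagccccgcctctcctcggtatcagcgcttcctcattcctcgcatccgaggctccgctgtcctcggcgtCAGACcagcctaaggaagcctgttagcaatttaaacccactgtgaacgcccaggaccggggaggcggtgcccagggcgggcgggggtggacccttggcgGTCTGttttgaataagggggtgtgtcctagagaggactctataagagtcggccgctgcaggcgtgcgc

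Id2: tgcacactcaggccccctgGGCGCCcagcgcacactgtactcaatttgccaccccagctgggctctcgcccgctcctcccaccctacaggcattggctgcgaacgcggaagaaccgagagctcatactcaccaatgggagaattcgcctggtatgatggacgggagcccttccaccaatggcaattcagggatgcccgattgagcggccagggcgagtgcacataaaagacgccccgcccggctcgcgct

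Tdgf1: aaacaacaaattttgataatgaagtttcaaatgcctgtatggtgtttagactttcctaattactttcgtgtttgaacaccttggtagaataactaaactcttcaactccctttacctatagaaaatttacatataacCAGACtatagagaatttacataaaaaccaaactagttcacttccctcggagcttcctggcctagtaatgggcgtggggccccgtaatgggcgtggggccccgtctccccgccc

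Levels were compared between genes as RPKM, the CPM divided by the exon length in kilobases. Tdgf1 stood highest in both genotypes, at 578.7 ± 7.69 (SD, n = 2) RPKM in WT, rising to 915.9 ± 32.2 (SD, n = 2) in G3 Terc-/- ESCs. In WT cells, Lefty1 followed at 91.4 ± 1.99 (SD, n = 2), then Lefty2 at 35.6 ± 0.864 (SD, n = 2), Nodal at 31.2 ± 1.63 (SD, n = 2) and Id3 at 31.1 ± 0.0330 (SD, n = 2). Of these, Nodal and Id3 did not differ beyond their spread. The order closed with Smad7 at 17.3 ± 1.94 (SD, n = 2), Id2 at 13.9 ± 1.27 (SD, n = 2), Id1 at 12.9 ± 0.250 (SD, n = 2) and Bmp4 at 10.9 ± 0.863 (SD, n = 2), where Id2 and Id1 overlapped. In G3 Terc-/- cells Lefty1 stood at 84.3 ± 1.78 (SD, n = 2) RPKM and Id3 came next at 71.1 ± 1.06 (SD, n = 2), above Nodal at 49.4 ± 1.94 (SD, n = 2) and Lefty2 at 39.8 ± 0.990 (SD, n = 2). Smad7 had 31.6 ± 0.306 (SD, n = 2) and Id1 13.8 ± 0.241 (SD, n = 2), and the lowest levels, which overlapped, were those of Bmp4 at 9.13 ± 0.474 (SD, n = 2) and Id2 at 9.07 ± 1.99 (SD, n = 2).

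**Figure D3:**
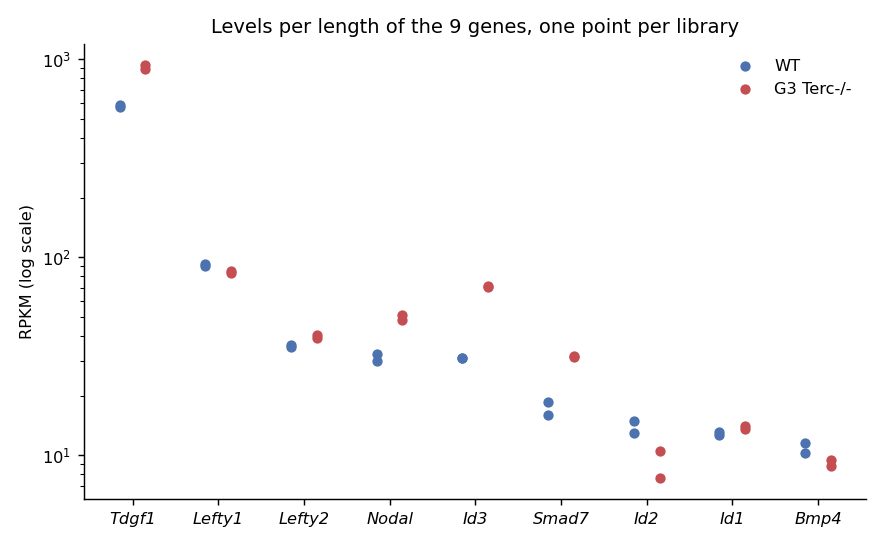
Level per length of each gene in RPKM on a log axis, ordered by the WT mean, with 1 point per library. Tdgf1 is the highest in every library, and Id3 lies with Nodal in WT but above Nodal and Lefty2 in G3 Terc-/- libraries.

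Beyond the 9 genes, and again with earlier results known, 36 others of the Nodal pathway were listed, of which 33 were tested. By adjusted p under 0.05, 10 were higher and 11 lower in G3 Terc-/- ESCs, or 63.6% called beside 43.5% of all genes, and their median log2 fold change was 0.04. Of the genes listed as targets, 5 of 8 tested were higher and 0 were lower, beside 21.7% and 21.8% of all genes. Foxa2, Mixl1 and Pmepa1 were not called, and Skil, also a target, was listed with the inhibitors. Eomes, a T-box factor of mesendoderm and trophoblast, had 8.75 ± 0.452 (SD, n = 2) CPM in WT against 27.1 ± 0.616 (SD, n = 2) in knockout cells, higher by 1.63 on the log2 scale (edgeR adjusted p = 5.27e-17). Gsc, Fgf8 and T (Brachyury), genes of the primitive streak, were higher by 1.58, 1.53 and 0.81 on the log2 scale, at low levels that did not exceed 7.15 CPM on average. Leaving out single libraries moved Gsc between 1.17 and 2.14 and Fgf8 between 1.05 and 2.23, with both still called.

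Apart from the Lefty genes and Smad7, the listed inhibitors of the Nodal pathway were mostly lower, with 8 of 11 tested lower and 1 higher, beside 21.8% and 21.7% of all genes. Skil, a co-repressor of SMAD2 and SMAD3 that is itself a target of the pathway, had 148.6 ± 6.49 (SD, n = 2) CPM in WT and 68.3 ± 1.76 (SD, n = 2) CPM in G3 Terc-/- cells, a log2 fold change of -1.12 (edgeR adjusted p = 8.95e-20). Its direction was thus opposite to that of Smad7. Tgif2, a co-repressor of the same SMADs, was lower by -0.58 and Tgif1, the most abundant of that list per length, by -0.17, a call lost without either WT library (highest edgeR adjusted p = 0.103). Fst, which encodes the activin antagonist follistatin, was the higher inhibitor of that list, at 6.44 ± 0.937 (SD, n = 2) and 13.1 ± 0.684 (SD, n = 2) CPM (log2 fold change 1.03, edgeR adjusted p = 3.65e-08). Fst is also made by fibroblasts, and its values stand beside a feeder marker sum 1.17 times as high in G3 Terc-/- as in WT libraries.

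Among ligands and their processing enzymes 1 of 7 tested was higher and 2 were lower, or 42.9% called, beside 43.5% of all genes. Gdf3, a ligand that also uses Cripto, was higher by 0.85 on the log2 scale (edgeR adjusted p = 6.27e-16), from 90.2 ± 1.55 (SD, n = 2) to 162.5 ± 13.6 (SD, n = 2) CPM. Gdf3 lies on chromosome 6 between 120 and 130 Mb, where 91 of 101 tested genes had a positive log2 fold change and the median was 0.54, and the part of that block in its value was not tested. Gdf1, whose transcript also encodes Cers1 so that reads may be split between them, was lower by -0.86, and Inhbb, a subunit of activin B, by -0.29, a call lost when WT replicate 1, WT replicate 2 or G3 Terc-/- replicate 2 was left out (highest edgeR adjusted p = 0.166). Of the receptors, 2 of 3 tested were higher, or 66.7%, beside 21.7% of all genes. Acvr2a, a type II receptor, was higher by 0.56 and Acvr1b, the type I receptor of Nodal, by 0.25, the latter not without WT replicate 1 (edgeR adjusted p = 0.256). Acvr2b, the most abundant of these per length, had 84.9 ± 4.55 (SD, n = 2) and 79.8 ± 0.961 (SD, n = 2) CPM and was not called. The calls of Inhbb, Acvr1b and the transducer Foxh1 were also lost with DESeq2 (adjusted p = 0.137, 0.0730 and 0.0507). Of the 4 transducers, Smad4, shared by both pathways, was higher by 0.34 and Foxh1 lower by -0.24, a call lost without WT replicate 2 (edgeR adjusted p = 0.158), while Smad2 and Smad3 were not called.

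The BMP pathway list, chosen in the same way, held 38 other genes, 34 of them tested. Of these, 6 were higher and 4 lower, or 29.4% called, a smaller share than the 43.5% of all genes, and the median log2 fold change was 0.10. With DESeq2 the calls came to 4, those of Bmpr1a, Smad9, Grem1, Smurf2, Gata3 and Hey1 being lost. None of the 7 genes listed as ligands and tested was called by edgeR, and 0 of them had an unadjusted p under 0.05. Bmp1, on that list, encodes a protease rather than a ligand. Bmp8b, the most abundant on that list per length, had 25.7 ± 0.148 (SD, n = 2) and 28.0 ± 4.27 (SD, n = 2) CPM. Of 4 receptors, Bmpr1a was higher by 0.17, a call lost without WT replicate 1 or G3 Terc-/- replicate 2 (highest edgeR adjusted p = 0.295). Smad5 was higher by 0.31, Smad9 had WT counts of 3 and 6 against 16 and 13 in G3 Terc-/- libraries (log2 fold change 1.78), a call lost without WT replicate 1 or G3 Terc-/- replicate 1 (highest edgeR adjusted p = 0.150), and Smad1 was not called.

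Other BMP target genes went both ways, like the Id genes. Of 7 tested, 1 was higher and 3 were lower, or 57.1% called, beside 43.5% of all genes. Id4, the remaining family member, had 7.12 ± 0.687 (SD, n = 2) CPM in WT and 13.6 ± 2.01 (SD, n = 2) CPM in G3 Terc-/- cells, a log2 fold change of 0.93 (edgeR adjusted p = 2.63e-07). Dusp9, a phosphatase of ERK that BMP signalling maintains in ESCs, was lower, from 196.8 ± 1.77 (SD, n = 2) to 107.0 ± 1.97 (SD, n = 2) CPM, with a log2 fold change of -0.88 (edgeR adjusted p = 1.34e-17). Dusp9 lies on the X chromosome, where 529 genes were tested with a median of -0.02, and the part of the lines' sex chromosomes in its value was not tested. Gata3 was lower by -1.06 at a WT mean of 2.18 CPM, a call lost without WT replicate 2 (-0.49, edgeR adjusted p = 0.434). Hey1, a transcriptional repressor, was called lower (-0.55, edgeR adjusted p = 0.0476), but its values of 5.68 and 3.07 CPM in WT overlapped the 2.80 and 3.18 CPM of the G3 Terc-/- libraries. That call was lost without WT replicate 1 or G3 Terc-/- replicate 1, with log2 fold changes from -0.93 to -0.05 on leaving out single libraries (highest edgeR adjusted p = 0.923), and with DESeq2 (adjusted p = 0.242). Of 13 inhibitors tested, 2 were higher and 1 was lower, or 23.1% called, a smaller share than that of all genes. Fstl1, a secreted glycoprotein that can bind BMP4 and is abundant in fibroblasts, was higher by 1.11 on the log2 scale (edgeR adjusted p = 2.15e-20), from 115.5 ± 9.76 (SD, n = 2) to 249.0 ± 4.57 (SD, n = 2) CPM. Grem1, a BMP antagonist, was higher by 0.54 and Smurf2, a ubiquitin ligase for SMADs and receptors, lower by -0.20, with both calls lost without WT replicate 2 or G3 Terc-/- replicate 1 and that of Smurf2 also without WT replicate 1 (highest adjusted p = 0.545 and 0.134 from edgeR). Grem1 is a gene of fibroblasts too, and its ratio of replicate 1 to replicate 2 was 1.27 in WT and 1.52 in G3 Terc-/- cells, beside 1.56 and 1.51 for the feeder marker sum. For Fstl1 that ratio was 1.13 and 0.974. The part of feeder cells in these values was not tested. Among the E proteins that the ID proteins bind, Tcf3, which encodes E2A, was lower by -0.23 and Tcf12 higher by 0.28, and Tcf4 was not called.

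**Figure D4:**
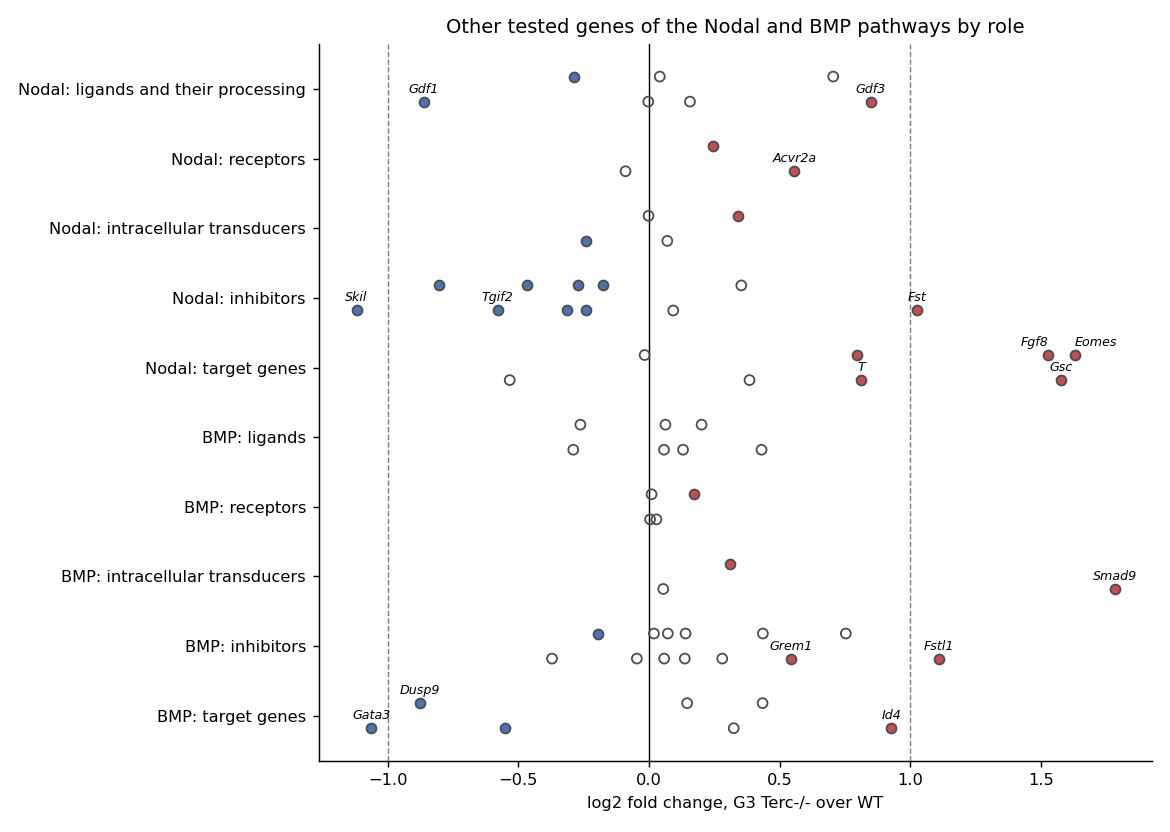
Log2 fold change, G3 Terc-/- over WT, of the other tested genes of both pathways by role, with genes called higher in red, called lower in blue and not called open; dashed lines mark a fold change of 2, and the vertical offset within a row has no meaning. The called genes in the row of Nodal targets lie to the right and most in the row of its inhibitors to the left. Skil, itself a target, is drawn among the inhibitors, and no gene in the row of BMP ligands is filled.

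Marker lists of other cell types were set beside these values. The feeder sum was 1.56 and 1.51 times as high in replicate 1 as in replicate 2 within WT and G3 Terc-/- cells, whereas for the 9 genes the same ratio lay between 0.731 and 1.08. Of 14 feeder markers tested, 6 were higher and 0 lower in G3 Terc-/- libraries, or 42.9% called. Of all genes 43.5% were called, 21.7% as higher and 21.8% as lower. Between libraries of the same replicate number, which had more alike feeder sums, the log2 ratio of G3 Terc-/- to WT was 1.21 and 1.18 for Id3, 1.00 and 0.75 for Smad7 and -0.77 and -0.50 for Id2. The part of feeder cells in the values of the 9 genes was not tested. Trophectoderm markers were lower, with 6 of 7 tested called lower, or 85.7%, beside 21.8% of all genes. Their summed level was 337.7 and 325.9 CPM in WT, against 177.2 and 175.3 CPM in G3 Terc-/- libraries. Much of the fall came from Krt8 (means of 111.8 CPM in WT and 46.6 CPM in G3 Terc-/-) and Krt18 (85.0 and 24.3 CPM). Krt18 fell by 1.81 on the log2 scale and Krt8 by 1.26, but Tfap2c by 0.18. Cdx2, a defining factor of the lineage, was at most 1.04 CPM in any library and Elf5 at most 0.225 CPM. Eomes, named above as a factor of trophoblast and not on this list, was higher by 1.63. Id2 is known as a gene of the trophectoderm and its fall, like that of Gata3, stands beside these values, whose part in it was not tested. Of 8 primitive endoderm markers 1 was higher and 4 lower, or 62.5% called, with sums between 177.1 and 211.8 CPM. Neural markers were called higher in 3 of 5 tested and lower in 0, or 60% called. Of 4 mesoderm markers tested 1 was higher and 1 lower, or 50% called. The higher was T, also a listed Nodal target, and the lower Hand1, also on the trophectoderm list. Pdgfra, not called, was on both the feeder and the primitive endoderm list. All 10 pluripotency markers were called, 7 as higher and 3 as lower. Among them Nanog rose most, by 1.13 on the log2 scale. Like Gdf3, Nanog lies on chromosome 6 between 120 and 130 Mb, and the part of that block in its value was not tested.

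**Figure D5:**
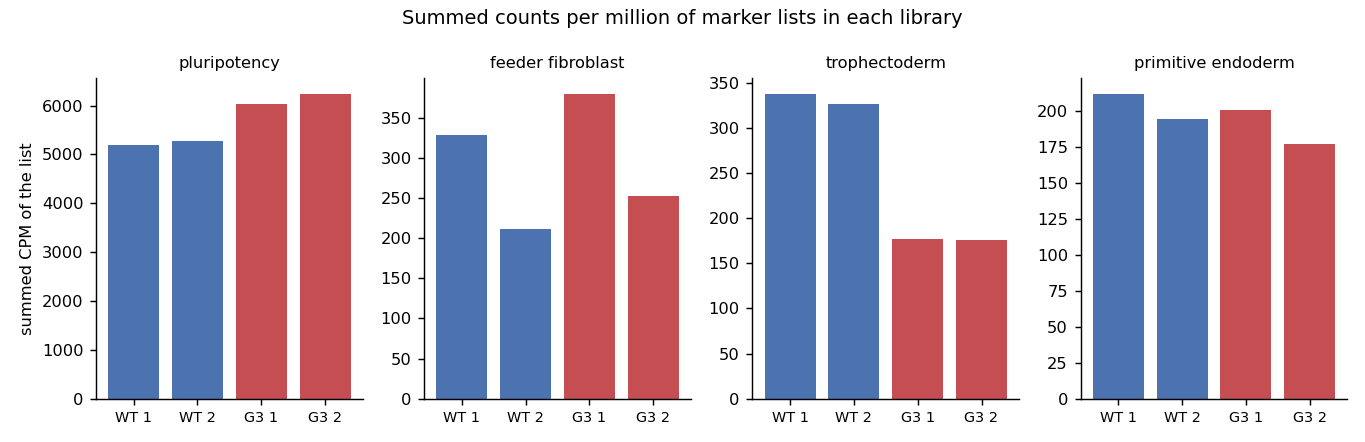
Summed CPM of 4 marker lists in each library, with axes from 0. The feeder sum follows the replicate number within each genotype, and the trophectoderm sum is lower in both G3 Terc-/- libraries.

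The genes whose pattern over the 4 libraries was closest to that of Lefty1, by the root mean square difference of centred log2 CPM among 12176 others, were Tcof1 (0.00214), Rexo1 (0.00249) and Rab11fip4 (0.00433). For Id1 they were Lrrfip2 (0.00161), Ccndbp1 (0.00372) and Pkmyt1 (0.00398). With 4 libraries and this many genes, close matches are easily found, so the names carry little and shared regulation was not tested.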

How the data were processed

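RNA-seq was done on 2 libraries of WT and 2 of G3 Terc-/- ESCs. The submitters' processing notes name Trim Galore, STAR, featureCounts and mm10, by which the authors took reads of 150 bases to gene counts. The versions, the annotation and the strand setting are not given in the sources used here. The deposited gene values are raw counts without normalization, listed by NCBI identifiers, of which 24061 of 24116 matched a symbol (GRCm38.p6). Replicates were not pooled. Counts of repeat copies were not used here, and the Cufflinks step of the study was replaced by a test on counts.

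Genes were filtered with filterByExpr (minimum count 10), scaled by TMM and tested across all genes with the quasi-likelihood method of edgeR 4.0.16 (no covariate besides genotype, p-values adjusted by Benjamini-Hochberg) in R 4.3.3. Standard errors are the log2 fold change divided by the square root of F. RPKM used exon lengths of GENCODE M21, which need not be the annotation counted. In simulated counts of 14738 genes, 97.5% of 200 genes changed 2-fold were recovered. The changed genes had a mean of at least 50 counts and all genes the same dispersion, so smaller changes and lower counts were not covered. Alternatives were DESeq2 1.42.0, other scalings and filters, a replicate block and each library left out, where 3 libraries remained and the lone sample was assumed to vary like the other genotype. The 9 genes and all lists were chosen with earlier results of these data known. Every listed gene changed over 2-fold, the 3 of each role with the smallest adjusted p and the most abundant of each role were named, and the rest of small roles, Hey1, the chromosome 6 block and the sex chromosomes were added after their values were seen. A target gene that this rule names is not reported here. Sequences were compared with Biopython 1.88, and figures drawn with matplotlib 3.10.9.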

Additional observations from a re-analysis of the deposited data

How the results depend on the processing

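No log2 fold change of the 9 genes turned its direction under the 6 other settings or with any of the 4 libraries left out. Of these 90 values, 79 kept their side of the threshold, 9 lost it (Bmp4 and Lefty2) and 2 gained it (Lefty1). Besides those given with each gene, Bmp4 lost its call with library totals in place of TMM (-0.22, edgeR adjusted p = 0.0534). Over all settings adjusted p-values ranged from 0.0118 to 0.306 for Bmp4, 0.00654 to 0.264 for Lefty2, 0.0262 to 0.408 for Lefty1 and 0.306 to 0.724 for Id1, and the calls of Nodal, Tdgf1, Smad7, Id2 and Id3 held in every setting. Of the 9 genes, 5 to 8 were called when a library was left out, and 1 passed the fold cutoff throughout. The 21 calls of the Nodal list came to between 17 and 21. The 10 calls of the BMP list came to 4 with DESeq2, the cause of which was not tested, and to between 7 and 12 with a library left out.

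The labels give both genotypes the replicate numbers 1 and 2 but do not say that a number marks a shared batch, and deviations from the group means correlated at 0.0617 over genes. With a replicate block for that number, 8 of the 9 genes were called, Lefty1 being added (-0.12, edgeR adjusted p = 0.0320), and calls over all genes went from 6479 to 7134. With 1 line per genotype and 2 libraries each, a difference of 0.10 was not detectable at the standard error of Id1, also 0.10. This limit differs between genes, as Lefty1 had a standard error of 0.05.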
